A study of Mus musculus with 15 samples.

Results

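The circadian output regulators examined here are 8 genes that carry the signal of the liver clock to other genes, namely Dbp, Tef, Hlf, Nfil3, Ciart, Bhlhe40, Bhlhe41 and Rgs16. They were chosen by gene symbol, and all 8 were found among the 19938 genes with 1 symbol on the array. Only Ciart had 2 transcript clusters, and the one with the higher mean over all 15 arrays (7.05 against 6.89 on the log2 scale) stood for it. This mean includes the 3 arrays on which Ciart was highest and on which the chosen cluster read higher than the other. The choice is therefore not independent of those arrays. Expression was measured in livers of male C57BL/6J mice with GeneChip Mouse Gene 1.0 ST arrays, whose values are log2 signals, 3 arrays in each of 5 groups. From week 8 the mice were fed a basal diet, an atherogenic and high-fat diet that serves as a model of nonalcoholic steatohepatitis (Ath+HF), or the same diet with 3% branched-chain amino acids (Ath+HF+BCAA). The basal diet arrays are of 38w (30 weeks on the diet), and those of both Ath+HF diets are of 38w or 68w (60 weeks on the diet). Each mouse was killed at a single age, so no animal was measured at both. No transgene or drug was involved, and every group had the same strain, sex and a 12-h/12-h light/dark cycle.

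The clock of a liver cell is a feedback loop in which CLOCK and BMAL1 (Arntl) activate their own repressors through E-boxes, so that many transcripts rise and fall once a day. Dbp, Tef and Hlf are the PAR bZIP activators, which bind D-boxes in genes of drug, lipid and amino acid metabolism, and Nfil3 (E4BP4) is a repressor that binds the same boxes. Ciart (CHRONO) and the basic helix-loop-helix proteins Bhlhe40 (DEC1) and Bhlhe41 (DEC2) repress CLOCK and BMAL1 or compete for the E-boxes, and Rgs16 is a rhythmic regulator of G protein signaling in hepatocytes that also responds to fasting and feeding.

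Promoter sequences are shown for the members that hold a clock motif close to the start of transcription, so that the letters can be set beside the expression values. RefSeq (GRCm38.p6) gave windows of 250 bases before to 50 bases after the start for 7 of the 8 members, all but Bhlhe40, with 8 windows in all because Tef has 2 starts. Each line reads 5′ to 3′ on the strand of the gene, with the E-box CACGTG in capitals, or, in Nfil3, the core of the element that REV-ERB and ROR receptors bind (TAGGTCA, which lies on the other strand and is read here as TGACCTA).
Ciart, chr3:95882179-95882478, minus strand: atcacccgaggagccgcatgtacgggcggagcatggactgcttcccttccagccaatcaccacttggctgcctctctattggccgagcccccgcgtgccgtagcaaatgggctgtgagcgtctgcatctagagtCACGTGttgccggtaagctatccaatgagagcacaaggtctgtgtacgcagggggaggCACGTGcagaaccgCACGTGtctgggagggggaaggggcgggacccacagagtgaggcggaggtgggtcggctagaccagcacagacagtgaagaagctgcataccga
Tef, upstream start, chr15:81802423-81802722, plus strand: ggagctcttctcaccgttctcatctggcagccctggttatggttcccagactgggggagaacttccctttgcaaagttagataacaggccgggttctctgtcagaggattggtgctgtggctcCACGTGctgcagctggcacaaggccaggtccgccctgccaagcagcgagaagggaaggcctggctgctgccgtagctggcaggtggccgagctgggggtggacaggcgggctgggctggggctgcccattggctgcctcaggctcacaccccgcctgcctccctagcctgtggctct
Tef, downstream start, chr15:81811164-81811463, plus strand: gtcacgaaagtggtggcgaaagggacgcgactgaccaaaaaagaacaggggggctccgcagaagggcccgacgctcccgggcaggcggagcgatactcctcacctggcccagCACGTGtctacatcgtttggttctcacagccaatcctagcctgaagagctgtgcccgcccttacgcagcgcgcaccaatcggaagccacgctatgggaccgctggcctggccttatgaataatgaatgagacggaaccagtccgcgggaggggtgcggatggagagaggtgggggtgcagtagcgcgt
Bhlhe41, chr6:145865371-145865670, minus strand: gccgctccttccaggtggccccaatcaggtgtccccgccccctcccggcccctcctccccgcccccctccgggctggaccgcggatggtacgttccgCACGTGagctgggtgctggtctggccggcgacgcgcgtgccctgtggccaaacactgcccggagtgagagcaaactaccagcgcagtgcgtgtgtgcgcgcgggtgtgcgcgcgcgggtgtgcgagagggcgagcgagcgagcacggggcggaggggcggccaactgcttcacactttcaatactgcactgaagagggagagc
Nfil3, chr13:52980990-52981289, minus strand: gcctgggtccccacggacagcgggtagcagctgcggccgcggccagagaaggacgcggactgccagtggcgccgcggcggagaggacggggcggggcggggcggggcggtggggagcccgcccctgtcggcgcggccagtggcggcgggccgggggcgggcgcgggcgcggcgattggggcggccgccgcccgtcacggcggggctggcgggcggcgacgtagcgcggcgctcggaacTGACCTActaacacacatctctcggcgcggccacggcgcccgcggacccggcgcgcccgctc

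The Ciart window holds 3 E-boxes, at 116, 58 and 44 bases before the start. Each Tef window holds 1 (127 and 138 bases before the start), as does the Bhlhe41 window (153 bases before it). The motif occurs in 7.15% of all 32851 promoter windows of the same length. The receptor element core in Nfil3 lies 12 bases before the start, and 2.61% of all windows hold this motif on either strand. The D-box, searched as TTATGTAA and TTACGTAA on both strands, is in 1.06% of all windows and in no window of a member. The windows of Dbp, Hlf and Rgs16 held none of these letters. A match describes the letters only, and binding was not measured.

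The groups were compared in 1 limma fit over all genes with Benjamini-Hochberg adjustment, and a gene was called higher or lower at an adjusted p under 0.05. The methods' test, an alternative, applied Bonferroni's method over the 10 pairs of groups for each gene, not over all genes. Whether each array is a separate mouse is not stated, so p-values measure only the spread between arrays, part of which may be technical. The sources used here give no hour at which the livers were taken, so hour and group cannot be told apart for these genes, whose levels change over the day. In any comparison of 68w with basal diet, age and diet cannot be told apart. Groups of 68w are named by their labels, and directions at 68w rest on them. The mean log2 level of 8 macrophage markers was 8.23 to 8.38 in the Ath+HF 68w arrays, 8.94 to 9.02 in the basal diet arrays and 10.01 to 10.48 in the Ath+HF+BCAA 68w arrays (9.65 to 10.15 in the Ath+HF and Ath+HF+BCAA arrays of 38w). The part of this order in the member values was not tested. The 7 hepatocyte markers measured, which define the labelled tissue, had a mean log2 level between 13.35 and 13.56 on every array. In bulk liver, fewer cells of a type and less RNA per cell cannot be told apart.

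Of the 8 members, 6 differed between the Ath+HF+BCAA 68w arrays and the Ath+HF 68w arrays. Ciart, Dbp, Bhlhe40, Bhlhe41 and Tef were higher, by 14.1-, 5.52-, 3.57-, 2.17- and 1.91-fold, and Nfil3 was 4.42-fold lower. The Ciart value is that of its brighter cluster. Hlf and Rgs16 were not called. Over all genes, 19.8% were called higher and 16.4% lower in this comparison, and the median log2 difference was 1.03 over the members against -0.09 over all genes. With array medians set equal, the split of all called genes moved from 54.7% to 28.7% higher, and Hlf was called lower beside the 6 members.

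**Figure D1:**
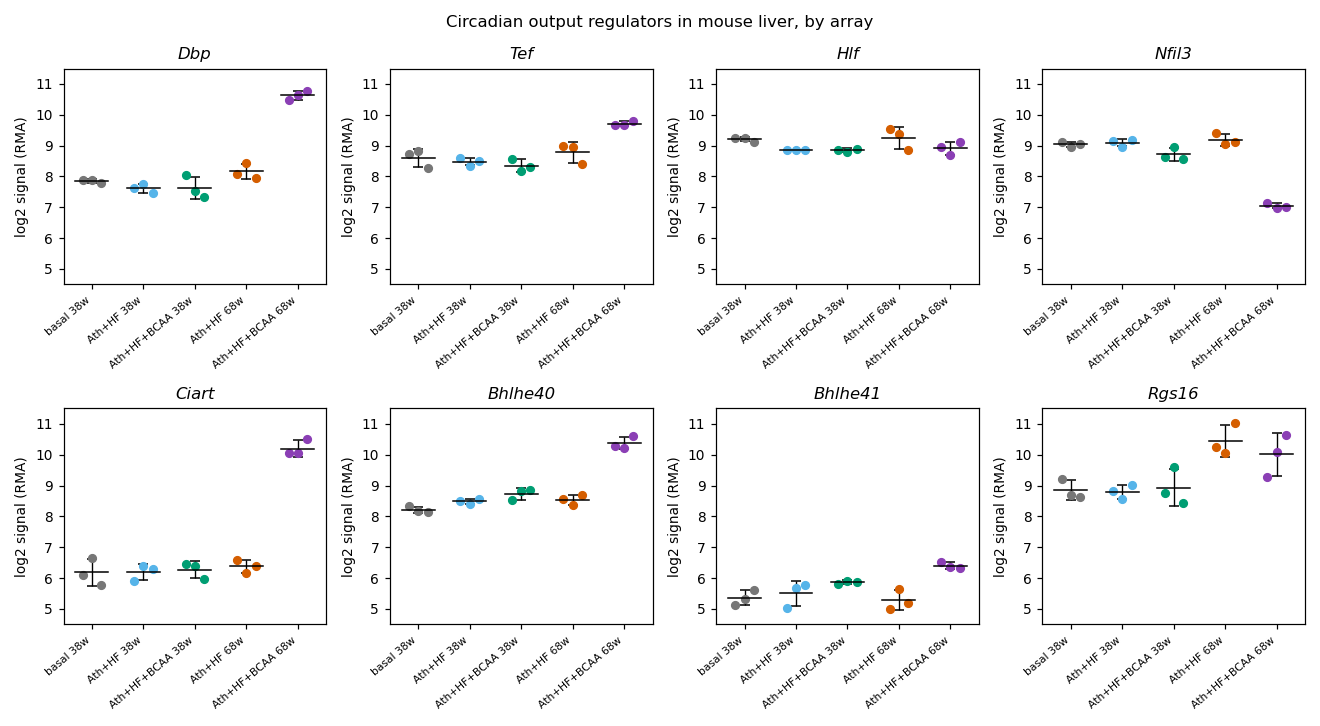
Log2 signal (RMA) of each member on each of the 15 arrays, 1 panel per gene with the 5 labelled groups on the horizontal axis, points for arrays and bars for the group mean with its SD. The 3 Ath+HF+BCAA 68w arrays stand apart from all 12 others for Dbp, Tef, Ciart, Bhlhe40, Bhlhe41 and Nfil3, with Nfil3 below them, while Rgs16 is high in both 68w groups. The share of all genes for which these arrays stand apart was not counted.

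Dbp, a PAR bZIP activator with a wide daily swing in liver, had its highest level in the Ath+HF+BCAA 68w arrays, at 10.48, 10.64 and 10.76 on the log2 scale. The Ath+HF 68w arrays read 8.09, 8.44 and 7.96. At 38w, the log2 signals were 7.90, 7.89 and 7.79 on basal diet, 7.62, 7.76 and 7.48 on Ath+HF, and 8.03, 7.52 and 7.35 on Ath+HF+BCAA. The 3 highest arrays overlapped no other group, and the next group, Ath+HF 68w, lay above all basal diet and Ath+HF 38w arrays but not above all of Ath+HF+BCAA 38w. The log2 difference between the 68w groups was 2.46 (standard error 0.16, adjusted p = 1.77e-08 from limma). From Ath+HF 38w to Ath+HF 68w, Dbp rose by 0.55 on the log2 scale (standard error 0.16, adjusted p = 0.0148 from limma). Without Ath+HF 38w array 3 or Ath+HF 68w array 2 this call was lost (0.47 with adjusted p = 0.0565, and 0.41 with adjusted p = 0.0801), as it was under the methods' test (adjusted p = 0.112).

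Tef, the related activator whose 2 promoter windows each hold an E-box, was highest in the same arrays with a smaller step. Its log2 signals were 9.68, 9.67 and 9.80 in the Ath+HF+BCAA 68w arrays and 8.99, 8.96 and 8.40 in the Ath+HF 68w arrays. The 38w arrays gave 8.74, 8.81 and 8.28 on basal diet, 8.59, 8.35 and 8.50 on Ath+HF, and 8.57, 8.16 and 8.29 on Ath+HF+BCAA. The highest group overlapped none, and the 4 other groups overlapped one another. Between the 68w groups the log2 difference was 0.93 (standard error 0.17, adjusted p = 0.000401 from limma). Against basal diet it was 1.11 (standard error 0.17, adjusted p = 6.17e-05 from limma).

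Hlf, the third activator of the family, was not highest there. Its arrays read 9.53, 9.37 and 8.86 under the label Ath+HF 68w and 8.94, 8.69 and 9.10 under Ath+HF+BCAA 68w. On basal diet the log2 signals were 9.24, 9.25 and 9.13, while Ath+HF 38w gave 8.86, 8.86 and 8.85 and Ath+HF+BCAA 38w gave 8.86, 8.80 and 8.90. All 6 arrays of both Ath+HF diets at 38w thus lay below the 3 basal diet arrays. Each 38w difference from basal diet was -0.35 (standard error 0.14) and missed the threshold (adjusted p = 0.205 without BCAA and 0.178 with it, from limma). The log2 difference between the 68w groups was -0.34 (95% confidence interval -0.64 to -0.04, adjusted p = 0.0729 from limma). It passed the threshold when Ath+HF 68w array 3 (-0.53, adjusted p = 0.00256) or Ath+HF+BCAA 68w array 3 (-0.43, adjusted p = 0.0467) was left out. It also passed with array medians set equal (-0.48, adjusted p = 0.0117), quantile normalization (-0.47, adjusted p = 0.00866), array weights (-0.44, adjusted p = 0.00333) and without dim genes (adjusted p = 0.0458). Hlf rose from 38w to 68w on Ath+HF by 0.40 on the log2 scale (standard error 0.14, adjusted p = 0.0378 from limma). That call was lost without any 1 of the 3 arrays of Ath+HF 38w (adjusted p = 0.0741 to 0.0817) and without Ath+HF 68w array 1 (0.26, adjusted p = 0.168) or array 2 (0.34, adjusted p = 0.126). It was also lost when these groups were fitted alone (adjusted p = 0.0755), with the pooled-variance test (adjusted p = 0.0646) and with the methods' test (adjusted p = 0.246).

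Nfil3, the repressor of the D-box, was lowest in the arrays in which Dbp and Tef were highest. In the Ath+HF+BCAA 68w arrays its log2 signals were 7.14, 6.99 and 7.02, against 9.41, 9.05 and 9.12 in the Ath+HF 68w arrays. The other arrays read 9.12, 8.95 and 9.04 on basal diet, 9.15, 8.97 and 9.18 on Ath+HF 38w, and 8.64, 8.96 and 8.57 on Ath+HF+BCAA 38w. The lowest group lay below every other array and, on all 3 arrays, below the median of all genes, so that its difference may be understated, and the groups on basal diet, Ath+HF 38w and Ath+HF 68w overlapped. Between the 68w groups the log2 difference was -2.14 (standard error 0.12, adjusted p = 5.93e-09 from limma). The log2 difference between the diets at 38w was -0.38 (standard error 0.12), with no overlap of the arrays, and it was not called (unadjusted p = 0.00688, adjusted p = 0.518 from limma). On Ath+HF+BCAA 38w against basal diet the difference was -0.31 (standard error 0.12, adjusted p = 0.153 from limma), and it passed the threshold without Ath+HF+BCAA 38w array 2 (-0.43, adjusted p = 0.0434).

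**Figure D2:**
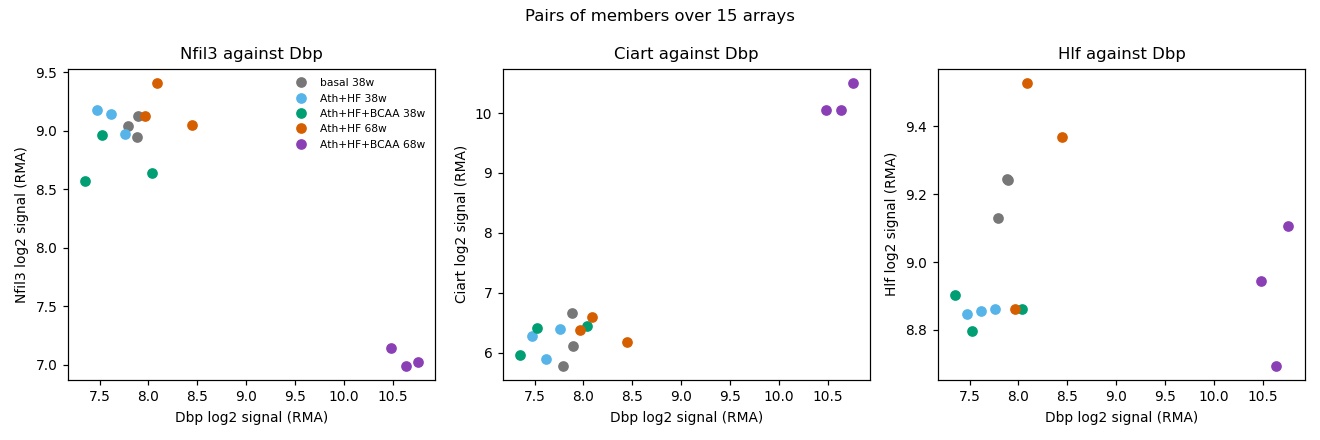
Log2 signal (RMA) of Nfil3, Ciart and Hlf on the vertical axes against Dbp on the horizontal axis, with 1 point per array colored by labelled group. For Nfil3 and Ciart the 3 Ath+HF+BCAA 68w arrays form a cluster of their own at Dbp signals of 10.48 to 10.76. Hlf lies at 8.69 to 9.10 on these arrays and at 8.80 to 9.53 on the others, so that the ranges overlap.

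Ciart, a repressor of CLOCK and BMAL1, showed the widest gap of the members when read by its brighter cluster. Its log2 signals were 10.05, 10.05 and 10.51 in the Ath+HF+BCAA 68w arrays and 6.59, 6.18 and 6.38 in the Ath+HF 68w arrays. At 38w they were 6.11, 6.66 and 5.78 on basal diet, 5.89, 6.40 and 6.28 on Ath+HF, and 6.45, 6.40 and 5.97 on Ath+HF+BCAA. The 4 lower groups all overlapped one another, and on all 12 of their arrays Ciart lay below the median of all genes (7.28 to 7.50 by array). The background level of the arrays was not measured, and differences of Ciart may be understated at such signals. The difference between the 68w groups was 3.82 on the log2 scale (standard error 0.21, adjusted p = 5.14e-09 from limma), the 8th highest of all 19938 genes. Against basal diet the log2 difference was 4.02 (standard error 0.21, adjusted p = 3e-09 from limma), the 3rd highest of all genes.

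The other Ciart cluster, for which the sources used here give no genome position, read 8.89, 8.73 and 9.74 in the Ath+HF+BCAA 68w arrays and 6.56, 6.56 and 6.81 in the Ath+HF 68w arrays. Its range over the 9 arrays of 38w was 5.81 to 6.57. Both clusters were thus highest on the same 3 arrays. With this cluster the log2 difference of Ciart between the 68w groups was 2.47 (adjusted p = 3.11e-07 from limma), smaller than 3.82 and close to the 2.46 of Dbp. The 14.1-fold difference and the ranks of Ciart among all genes are those of the brighter cluster only. With the other cluster Ciart was also called higher in the Ath+HF 68w arrays than on basal diet (0.59, adjusted p = 0.0417, against 0.20 and 0.47 with the brighter cluster).

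Bhlhe40, the repressor DEC1, which is also induced by hypoxia and immune signals, read 10.29, 10.22 and 10.60 in the Ath+HF+BCAA 68w arrays and 8.57, 8.36 and 8.68 in the Ath+HF 68w arrays. The 38w log2 signals were 8.32, 8.18 and 8.13 on basal diet, 8.50, 8.40 and 8.56 on Ath+HF, and 8.52, 8.83 and 8.85 on Ath+HF+BCAA. The basal diet arrays were the 3 lowest of all 15, and the 3 groups between them and the highest overlapped one another. The log2 difference between the 68w groups was 1.84 (standard error 0.12, adjusted p = 2.75e-08 from limma). Bhlhe40 was also the only member called at 38w, at 0.52 higher on Ath+HF+BCAA than on basal diet on the log2 scale (standard error 0.12, adjusted p = 0.0224 from limma). This call was lost without basal diet array 2 (0.51, adjusted p = 0.0609) or array 3 (0.48, adjusted p = 0.0765) and without Ath+HF+BCAA 38w array 2 (0.48, adjusted p = 0.0586) or array 3 (0.46, adjusted p = 0.0866). It was also lost when these groups were fitted alone (adjusted p = 0.0991), with array weights (0.46, adjusted p = 0.103) and with the pooled-variance test (adjusted p = 0.0511). Of 8 macrophage markers, 5 were higher than on basal diet in each Ath+HF group of 38w, and their part in the Bhlhe40 values was not tested.

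Bhlhe41, its paralog DEC2, lay below the median of all genes on all 15 arrays, so that its differences may be understated. It read 6.52, 6.35 and 6.32 in the Ath+HF+BCAA 68w arrays and 5.00, 5.63 and 5.20 in the Ath+HF 68w arrays. At 38w the log2 signals were 5.13, 5.33 and 5.62 on basal diet, 5.04, 5.67 and 5.78 on Ath+HF, and 5.79, 5.91 and 5.88 on Ath+HF+BCAA. Both BCAA groups lay above all other arrays and did not overlap each other, but the gap at 38w was narrow (5.79 against 5.78). At 38w the BCAA group was not called against Ath+HF (0.36, adjusted p = 0.688 from limma). Nor was it called against basal diet (0.50, adjusted p = 0.144 from limma). The share of all genes with such an order was not counted. Between the 68w groups the log2 difference was 1.12 (standard error 0.19, adjusted p = 0.000213 from limma). The rise from 38w to 68w with BCAA was 0.54 (standard error 0.19, adjusted p = 0.033 from limma), and it was lost without any 1 of the 3 arrays of Ath+HF+BCAA 38w or of Ath+HF+BCAA 68w (adjusted p = 0.0538 to 0.111). It was also lost with array medians set equal (0.38, adjusted p = 0.119), quantile normalization (0.42, adjusted p = 0.0892), the pooled-variance test (adjusted p = 0.0751) and the methods' test (adjusted p = 0.306).

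Rgs16 had an order of its own, in which both 68w groups were high. Its log2 signals were 10.25, 10.06 and 11.04 in the Ath+HF 68w arrays and 9.27, 10.10 and 10.65 in the Ath+HF+BCAA 68w arrays. The 38w arrays gave 9.21, 8.69 and 8.64 on basal diet, 8.82, 8.55 and 9.0 on Ath+HF, and 8.75, 9.59 and 8.42 on Ath+HF+BCAA. The 68w groups overlapped each other, and Ath+HF 68w lay above every 38w array. Rgs16 rose from 38w to 68w on Ath+HF by 1.66 on the log2 scale (standard error 0.34, adjusted p = 0.00165 from limma), a 3.16-fold change. With BCAA the rise was 1.09 (standard error 0.34, adjusted p = 0.0194 from limma), and it was lost without Ath+HF+BCAA 38w array 1 (1.0, adjusted p = 0.0579) or array 3 (0.84, adjusted p = 0.0886) and without Ath+HF+BCAA 68w array 2 (1.04, adjusted p = 0.0586) or array 3 (0.77, adjusted p = 0.105). It was also lost with a robust variance trend (adjusted p = 0.0512), the pooled-variance test (adjusted p = 0.0631) and the methods' test (adjusted p = 0.245). The log2 difference between the 68w groups was -0.44 (95% confidence interval -1.16 to 0.28, adjusted p = 0.317 from limma).

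At 38w, 1 of the 8 members was called in the comparisons with basal diet. Against basal diet, limma called 0 of the 8 on Ath+HF (4.23% of all genes were called in either direction), with 2 at an unadjusted p under 0.05, Hlf and Bhlhe40, and the test the study's methods name also called 0, with 733 of all genes higher and 306 lower. On Ath+HF+BCAA it called 1, Bhlhe40, where 5.49% of all genes were called. The confidence intervals of Dbp, Tef and Ciart for these comparisons lay between -0.62 and 0.54 on the log2 scale. Between the diets at 38w, with and without BCAA, limma called 0 members and 0% of all genes, and the methods' test called 0 members, with 82 of all genes higher and 119 lower. The methods' test makes no adjustment over genes, so its counts of all genes cannot be set beside those of limma. Between these diets Nfil3 was the only member at an unadjusted p under 0.05 from limma.

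**Figure D3:**
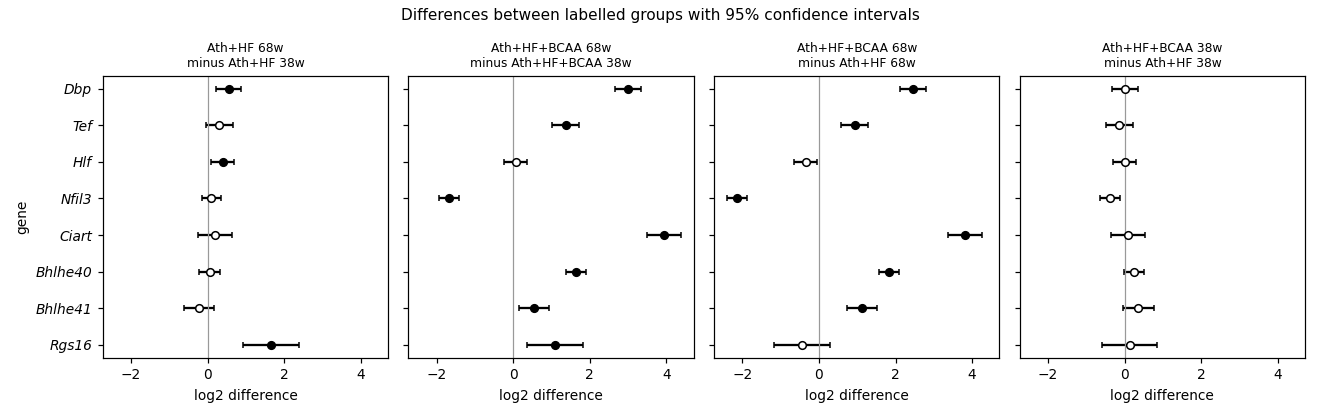
Log2 difference of each member between labelled groups, with its 95% confidence interval, for the comparisons named above the panels, filled where limma called it. In the comparison of both 68w groups Ciart lies at 3.82 and Nfil3 at -2.14, while in the 38w comparison of the same diets every interval but that of Nfil3 includes 0.

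Both comparisons of 68w arrays with basal diet use the same 3 basal diet arrays, and their values are given side by side. In the Ath+HF 68w arrays, 2 members were called higher and 0 lower, where 19.0% of all genes were higher and 19.1% lower. These were Rgs16, at a log2 difference of 1.60 (standard error 0.34, adjusted p = 0.0021 from limma), and Bhlhe40, at 0.33 (standard error 0.12, adjusted p = 0.0495 from limma). The Bhlhe40 call was lost in 10 of the 15 fits that left out 1 array (0.26 to 0.41 over all 15 fits, adjusted p up to 0.175), and also with array medians set equal (0.26, adjusted p = 0.124), array weights (0.25, adjusted p = 0.134), these groups fitted alone (adjusted p = 0.0615), the pooled-variance test (adjusted p = 0.0668) and the methods' test (adjusted p = 0.26). The arrays whose absence lost the call were basal diet arrays 2 and 3, all 3 of Ath+HF 38w, Ath+HF+BCAA 38w array 2, Ath+HF 68w arrays 1 and 3 and Ath+HF+BCAA 68w arrays 1 and 2. In the Ath+HF+BCAA 68w arrays, 6 members were higher and 1, Nfil3, was lower, where 22.9% and 21.8% of all genes were called. Hlf was not called there, at a log2 difference of -0.29 (standard error 0.14, adjusted p = 0.108 from limma). It was called lower with array medians set equal (-0.50, adjusted p = 0.00807) and without Ath+HF 68w array 3 (-0.29, adjusted p = 0.0327). The Rgs16 difference in these arrays was 1.16 (standard error 0.34, adjusted p = 0.0113 from limma) and lost its call without Ath+HF+BCAA 68w array 3 (0.84, adjusted p = 0.0691) and under the methods' test (adjusted p = 0.179). With array medians set equal, the share of called genes that were higher went from 49.9% to 36.7% and from 51.2% to 25.8% in these comparisons.

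The change from 38w to 68w was compared within each diet, between different animals. Age and weeks on the diet changed together and cannot be told apart here. On Ath+HF, 3 members rose and 0 fell, where 17.6% of all genes rose and 20.0% fell, and the 3 were Rgs16, Dbp and Hlf. Tef, at 0.30 (standard error 0.17, adjusted p = 0.164 from limma), passed the threshold without Ath+HF 68w array 3 (0.50, adjusted p = 0.0287), with quantile normalization (0.47, adjusted p = 0.029) and with array weights (0.41, adjusted p = 0.0309). On Ath+HF+BCAA, 6 rose and 1 fell, where 20.5% of all genes rose and 18.3% fell (52.8% of the called genes rose, or 29.0% with array medians set equal). The log2 differences were 3.93 for Ciart (standard error 0.21), 2.99 for Dbp (standard error 0.16), 1.64 for Bhlhe40 (standard error 0.12), 1.37 for Tef (standard error 0.17) and -1.67 for Nfil3 (standard error 0.12), with adjusted p between 8.28e-09 and 1.62e-05 from limma. Only Hlf was not called, at 0.06 (95% confidence interval -0.24 to 0.36). Dbp and Ciart, the latter by its brighter cluster, were the 4th and 2nd highest of all genes. By the other Ciart cluster the rise was 2.80 on the log2 scale, below the 2.99 of Dbp. In the mean of both diets, 5 members were higher at 68w and 1 lower, where 25.9% and 22.7% of all genes were called (53.3% of the called genes were higher, or 38.4% with array medians set equal). Dbp and Rgs16 were the members called higher at 68w on each diet. Hlf was at 0.23 in this mean (standard error 0.10, adjusted p = 0.0701 from limma) and was called without Ath+HF 68w array 3 (0.33, adjusted p = 0.0038) or Ath+HF+BCAA 68w array 2 (0.28, adjusted p = 0.0351), with quantile normalization (0.32, adjusted p = 0.00899), with array weights (0.27, adjusted p = 0.0205), with a robust variance trend (adjusted p = 0.0488) and without dim genes (adjusted p = 0.049).

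The difference between the labelled BCAA effects at 68w and at 38w was tested by an interaction term in the same fit. It was called for 5 of the 8 members, where 20.6% of all genes were called in either direction (62.7% of them positive, or 33.5% with array medians set equal and 52.0% with quantile normalization). The interaction was 3.73 for Ciart, 2.45 for Dbp, 1.59 for Bhlhe40, 1.07 for Tef and -1.77 for Nfil3 on the log2 scale (adjusted p between 7.92e-07 and 0.00412 from limma). Bhlhe41 missed the threshold at 0.76 (standard error 0.26, adjusted p = 0.0541 from limma), as did Hlf at -0.34 (adjusted p = 0.26) and Rgs16 at -0.57 (adjusted p = 0.439). Leaving out basal diet array 3, Ath+HF 38w array 1 or Ath+HF 68w array 2 brought Bhlhe41 under the threshold (adjusted p = 0.047, 0.0071 and 0.0204), as did quantile normalization (0.78, adjusted p = 0.0398), a robust variance trend (adjusted p = 0.0492) and the replicate block (adjusted p = 0.036), and leaving out Ath+HF 68w array 3 did so for Hlf (-0.53, adjusted p = 0.0268).

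The members were compared with one another over the 12 arrays outside the Ath+HF+BCAA 68w group. The 3 arrays of that group stood apart for 6 members, so no r between members is given over all 15. The share of all genes for which these arrays stood apart was not counted. Over the 12 arrays, Pearson's r was 0.72 between Dbp and Tef, 0.81 between Tef and Hlf and 0.66 between Dbp and Hlf, the 3 PAR bZIP genes. Within groups, as deviations from the group means over all 15 arrays, the r of these pairs was 0.55, 0.71 and 0.28. Between Dbp and Nfil3 it was 0.28 over the 12 arrays and -0.33 within groups, and between Dbp and Ciart it was 0.30 and 0.29. Other pairs were negative in both, with -0.45 and -0.56 for Dbp and Bhlhe40 and -0.58 and -0.32 for Tef and Bhlhe41. For Nfil3 and Bhlhe41 the values were -0.68 and -0.30. Over all 28 pairs the r within groups ran from -0.56 to 0.71. The r over the 12 arrays includes the differences between the means of their groups. Arrays share normalization, and these values describe 15 arrays only.

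The genes whose pattern over the 15 arrays was most like that of a member were named by the 3 highest Pearson r. This r includes the differences between group means. For Dbp they were Per3 (0.98), a period gene of the clock loop, Eps8l3 (0.98) and Slc1a1 (0.98), and for Tef they were Dll4 (0.96), Per3 (0.95) and Cdk5 (0.95). For Ciart they were Per3 (0.98), Lpcat4 (0.98) and Gipc2 (0.97). Per3 thus stood among the likest genes of Dbp, Tef and Ciart. Nfil3 was most like Hacl1 (0.98), Tlcd4 (0.98) and Dpyd (0.97), and Bhlhe40 most like Capns1 (0.98), Cbr3 (0.97) and Mxra8 (0.97). Bhlhe41 was nearest to Map7d1 (0.91), Rftn1 (0.90) and Gsr (0.89), Hlf to Anpep (0.89), Uroc1 (0.89) and Nacc2 (0.87), and Rgs16 to 6430628N08Rik (0.94), Sorbs3 (0.94) and Lims2 (0.92). Within groups, r with Per3 was 0.80 for Tef, 0.36 for Dbp and 0.35 for Ciart. The likeness of Dbp and Ciart to Per3 thus came mostly from the group means. The other genes follow in the order named. Their r within groups was 0.51 and 0.37 for Dbp, 0.88 and 0.80 for Tef, and 0.77 and 0.33 for Ciart. It was 0.70, 0.20 and 0.58 for Nfil3, 0.25, 0.32 and 0.08 for Bhlhe40, and 0.85, 0.79 and 0.52 for Bhlhe41. For Hlf it was 0.85, 0.91 and 0.82, and for Rgs16 0.82, 0.81 and 0.71.

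Over all genes, 19.8% were called higher and 16.4% lower in the Ath+HF+BCAA 68w arrays than in the Ath+HF 68w arrays (median log2 difference -0.09). Of 12 core clock genes measured, 7 were higher and 3 lower in this comparison (median log2 difference 0.36). Higher were the repressors Per3 at 1.97 (standard error 0.14), Per2 at 1.27 (standard error 0.10), Per1 at 0.83 (standard error 0.16) and Cry2 at 0.49 (standard error 0.12), the receptor Nr1d2 at 1.03 (standard error 0.28), and the kinases Csnk1e at 0.76 and Csnk1d at 0.23. The period and cryptochrome proteins close the loop by repressing CLOCK and BMAL1. Lower were the activators Arntl at -1.89 (standard error 0.16) and Clock at -1.22 (standard error 0.11) and the receptor Rora at -0.31. The repressor Cry1 was at -0.38 (adjusted p = 0.111 from limma), and Nr1d1 (REV-ERB alpha) at 0.10 (adjusted p = 0.861 from limma). Against basal diet, Nr1d1 was higher in both 68w groups, at a log2 difference of 1.69 in the Ath+HF 68w arrays and 1.79 in the Ath+HF+BCAA 68w arrays (standard error 0.40 for each), and Rgs16 was the member with a like pair of values, 1.60 and 1.16.

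Of 8 genes that the PAR bZIP factors and Nfil3 are known to control, 6 were measured. Their median log2 difference between the 68w groups was -0.59, against -0.09 over all genes. Of all genes 19.8% were called higher and 16.4% lower there, and of these 6 genes 0 were higher and 3 lower. These were Fgf21, a hormone of the fasted liver that Nfil3 represses, at -2.16 (standard error 0.37), the fatty acid receptor Ppara at -0.55 (standard error 0.15) and the drug receptor Nr1i3 (CAR) at -0.46 (standard error 0.15). Alas1, the enzyme that opens heme synthesis, was at -0.66 with a standard error of 0.28 and was not called (adjusted p = 0.0794 from limma).

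Of 10 other clock-driven liver genes, 9 were measured, with 5 higher and 3 lower between the 68w groups (median 0.81). The cell cycle kinase Wee1 was at 2.07 (standard error 0.15) and Nampt, of NAD synthesis, at 1.59 (standard error 0.15), while the elongase Elovl3 was at -6.78 (standard error 0.17) and the vasopressin receptor Avpr1a at -1.32 (standard error 0.15). Genes of fasting and feeding moved as well, with 2 of 9 measured higher and 6 lower (median -0.83). The list mixes genes of fasting with genes of feeding, so its counts and median describe neither kind alone. The genes given next were picked by smallest p and are all lower, so the 2 higher genes are not among them. Also measured were Pck1, Igfbp1, Srebf1, Thrsp and Pnpla3. G6pc was at -2.41 (standard error 0.19), Pdk4 at -3.32 (standard error 0.38), Cpt1a at -0.80 (standard error 0.11) and Angptl4 at -1.45 (standard error 0.25), all of them genes that rise in the fasted liver. Of 8 glucocorticoid targets 2 were higher and 0 lower (median 0.04), and of 10 immediate early genes 3 were higher and 1 lower (median 0.22), beside 19.8% of all genes higher and 16.4% lower. The sources used here give no feeding state at killing, and its part in the member values was not tested.

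**Figure D4:**
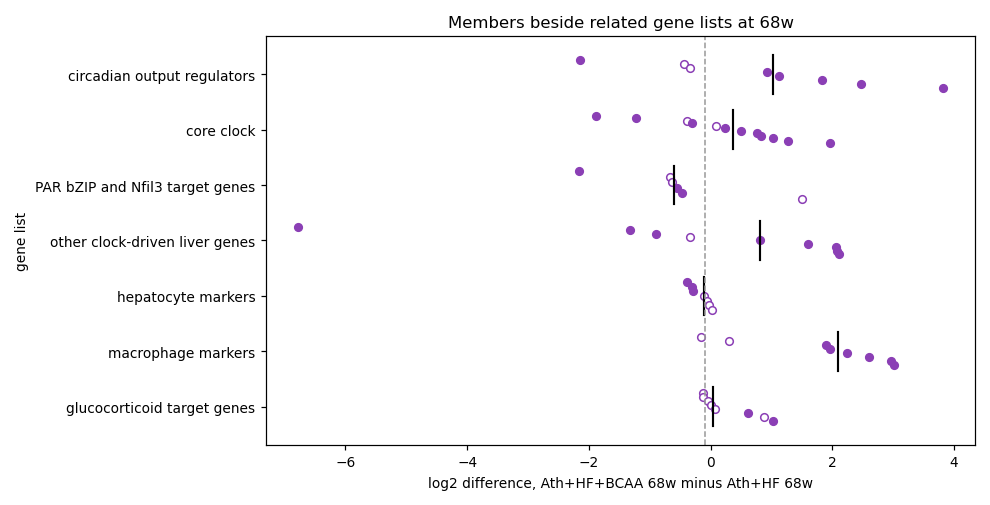
Log2 difference between the Ath+HF+BCAA 68w arrays and the Ath+HF 68w arrays for the members and 6 gene lists, 1 point per gene, filled where limma called it, with a bar at the list's median and a dashed line at the median of all genes, -0.09. The members' median lies at 1.03, the core clock spreads to both sides, and the macrophage markers lie at a median of 2.10.

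Markers of other cells moved in the same comparison, in which 19.8% of all genes were called higher and 16.4% lower. Of the macrophage markers 6 of 8 were higher (median 2.10), among them Cd68 at 2.61, Ctss at 2.97, Lyz2 at 3.02 and Csf1r at 1.90, and 2 were not called. Higher too were 5 of 7 stellate or fibroblast markers, 6 of 8 lymphocyte markers, 4 of 4 measured cholangiocyte markers and 4 of 5 endothelial markers. Of 7 hepatocyte markers, 3 were lower and 0 higher (median -0.10), with Cyp2e1 at -0.39. The part of these cells in the member values was not tested.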

How the data were processed

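Gene expression was measured in mouse liver on 15 arrays in 5 labelled groups of 3. The deposited log2 values had been background-corrected, quantile normalized and summarized by RMA in Affymetrix Expression Console by the authors (version not given in the sources used here). Transcript clusters were named through the platform's annotation, and the cluster with 1 symbol and the highest mean over all arrays stood for each of 19938 genes (21789 of 35556 clusters had 1 symbol, 1621 several, and 12146 were unnamed here).

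All arrays entered 1 fit with a coefficient per group by lmFit and eBayes of limma 3.58.1 in R 4.3.3, leaving 10 residual degrees of freedom. P-values were adjusted by the Benjamini-Hochberg method over all genes for each of 10 comparisons, and the fit was tested on simulated data. The members, gene lists and tests were chosen with earlier results of these data known, so that counts over them are descriptions. Named are all members, the core clock genes, at most 4 genes of each other list by smallest p, and the 3 genes most like each member. Samples were grouped by labels. Same-numbered arrays were not paired. Alternatives were 2 other scalings, other variance models and tests, a replicate block, a filter on dim genes, other clusters, fewer groups and leaving out each array. The methods' test was a pooled-variance comparison with Bonferroni's method over the 10 pairs of groups for each gene, without adjustment over genes. It follows the general statistics of the study. The array comparison of the study used a fold cutoff and a p cutoff of its own, which were not applied here. A fit of the 38w arrays alone and the other Ciart cluster were added after seeing the data. The number of arrays limits the precision.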

Additional observations from a re-analysis of the deposited data

Results flagged for a closer look

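The difference between the groups with and without BCAA was not the same at 68w as at 38w for 5 members, by the interaction term of limma, which called 20.6% of all genes in either direction (62.7% of them positive, or 33.5% with array medians set equal). It was 3.73 for Ciart (adjusted p = 7.92e-07), 2.45 for Dbp (adjusted p = 2.37e-06), 1.59 for Bhlhe40 (adjusted p = 1.2e-05), 1.07 for Tef (adjusted p = 0.00412) and -1.77 for Nfil3 (adjusted p = 3.69e-06) on the log2 scale. At 38w the differences with and without BCAA were 0.08, 0.02, 0.25, -0.14 and -0.38 in the same order, and at 68w they were 3.82, 2.46, 1.84, 0.93 and -2.14. The 68w values rest on the labels of these arrays.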

How the results depend on the processing

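Of 80 pairs of a member and a comparison, 37 were called, 30 of these kept call and direction in every alternative run for them, 7 lost the call in some, 9 uncalled pairs were called in some, and 0 were reversed. Without dim genes 6 members were tested, all but Ciart and Bhlhe41, and the methods' test was not run for the mean of both diets and the interaction. Against basal diet at 38w, the 1 member called on Ath+HF+BCAA became 0 when the groups compared were fitted alone, with array weights and with the pooled-variance test under Benjamini-Hochberg adjustment (0 to 1 when 1 array was left out). Without Ath+HF+BCAA 38w array 2 the 1 member called was Nfil3, lower, in place of Bhlhe40. For Ath+HF 68w against basal diet, the 2 members became 1 with array medians set equal, with those groups fitted alone, with array weights, with the methods' test and with the pooled-variance test (1 to 2 when 1 array was left out). For Ath+HF 68w against 38w, the 3 members became 1 with the methods' test (1 to 4 when 1 array was left out). The cause was not tested. When 1 array was left out, the count was 6 to 8 for Ath+HF+BCAA 68w against basal diet, 5 to 7 against Ath+HF+BCAA 38w, 6 to 7 against Ath+HF 68w, 6 to 7 in the mean of both diets, 5 to 6 for the interaction and 0 in the other 38w comparisons.

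Array medians set equal shifted the median log2 difference of all genes from 0.01 to -0.20 for Ath+HF+BCAA 68w against basal diet, from 0.03 to -0.12 against Ath+HF+BCAA 38w, from -0.09 to -0.23 against Ath+HF 68w and from -0.05 to -0.21 in the interaction. The share of called genes that were higher moved from 72.1% to 44.3% and from 66.8% to 46.4% on Ath+HF and Ath+HF+BCAA against basal diet at 38w.

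For same-numbered arrays of different groups the correlation of deviations was -0.16 to 0.18 over 30 pairs, 3 of them over 0.1. For arrays of other numbers it was -0.19 to 0.20 over 60 pairs, 5 of them over 0.1. Of 15 arrays, 7 correlated best with their own number. These values gave no clear sign of pairing but cannot exclude it. With a replicate block the interaction was called for 6 members instead of 5, by the gain of Bhlhe41 (adjusted p = 0.036), and the count changed in no other comparison. Ciart lay outside the Ath+HF+BCAA 68w arrays, Nfil3 within them and Bhlhe41 on all arrays below the median of all genes, which may limit their differences.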
